A study of Homo sapiens with 43 samples.

Results

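The regions described here are stretches of transcribed strand at which peaks recurred with an anti-FLAG antibody in cells named without a tagged protein, and at which the corresponding anti-V5 libraries had no peak. Peaks of 14 lists, 7 called FLAG-only and 7 called V5-only in the labels, were pooled and merged wherever they overlapped by 1 nt or more on the same strand, with the mitochondrial chromosome left out. Of the 272335 merged regions, 453 held peaks from 5 or more FLAG-only lists and from no V5-only list. These 453 regions are called members. They were selected on the presence and absence of peaks in these 14 lists, and neither the fold nor the p of a peak was used. They make up 0.166% of all merged regions, a share that the rule itself sets and from which nothing is read.

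The series used eCLIP, a method in which ultraviolet light links proteins to the RNA they touch, the RNA is trimmed with RNase I, and one protein is pulled down with an antibody before its RNA is sequenced. All libraries came from HEK293T cells, a human embryonic kidney line, and the series covers wild-type cells and cells with tags placed in the genes of RNA-binding proteins. The FLAG-only libraries used an anti-FLAG antibody from Sigma and the V5-only libraries an anti-V5 antibody from Bethyl. The labels name no tagged protein for them and leave unsaid if a tag was present in their cells. Each antibody had 1 library from each of 7 gel ranges of 75 kDa (25-100, 50-125, 75-150, 100-175, 125-200, 150-225 and 175-250 kDa), so that neighbouring ranges shared 50 kDa. The labels list 1 input per range, so the 2 antibodies appear to share it. A further 11 libraries of 5 RNA-binding proteins (RBPs) took no part in the choice of members. The wild-type libraries used antibodies against HNRNPC, FMR1, RBFOX2, LIN28 and DGCR8. The tagged libraries were HNRNPC V5 isoform 1, HNRNPC V5 isoform 2, RBFOX2 V5 and LIN28 V5, pulled down with anti-V5, and FMR1 FLAG and DGCR8 FLAG, pulled down with anti-FLAG. Every library stands alone for its RBP and tag state, and the labels do not say that gel ranges came from separate cultures.

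As background, an antibody against a tag can carry along RNA that has nothing to do with a tagged protein, through other proteins it recognises or through the beads. Such RNA is assessed with a size-matched input, RNA cut from the same gel range without the antibody, and with libraries from cells named for the tag alone. FLAG and V5 are short peptide tags that are recognised by unrelated antibodies. Among the RBPs, FMR1 binds messenger RNAs and restrains their translation, HNRNPC binds uridine-rich stretches of nascent transcripts in the nucleus, RBFOX2 regulates splicing, LIN28 blocks the maturation of let-7 microRNAs and also binds messenger RNAs, while DGCR8 guides the nuclease DROSHA to microRNA hairpins.

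The authors gave each peak a log2 fold, the enrichment of the immunoprecipitation over its input, and a −log10 p. Both are the authors' own values and are used to describe and rank peaks within a list. Peaks are called significant below where both the −log10 p and the log2 fold reached 3 (8-fold for the latter). Where a library had several peaks in a region, the highest log2 fold was taken. Positions are in hg19 and 1-based. Genes are not named, because no annotation or sequence of that build was used here. The FLAG-only lists held 413698 peaks in total and the V5-only lists 416239, so the 2 antibodies had nearly the same number of peaks. Significant peaks numbered 32160 with FLAG and 13078 with V5. Read depth was not used and is unknown.

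Most members met the rule narrowly. Of the 453, 284 had peaks in 5 FLAG-only lists, 114 in 6 and 55 in all 7. Just outside the rule, 825 regions had peaks in 4 FLAG-only lists and no V5-only list, and 816 had peaks in 5 or more FLAG-only lists and in a single V5-only list. The median log2 fold over the libraries with a peak was 2.55 for the median member, with quartiles at 2.06 and 3.57. The regions just outside had 2.24 in 4 FLAG-only lists and 2.23 with 1 V5-only list. Members had a median width of 76 nt and a range from 5 to 593 nt, and were wider than all merged regions, whose median was 33 nt.

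Recurrence with FLAG and not V5 was the exception among recurrent regions. Of the 21110 regions with peaks in 5 or more FLAG-only lists, 13742 had peaks in 5 or more V5-only lists as well, and 5190 had peaks in all 14 lists. The rule mirrored for V5 (peaks in 5 or more V5-only lists and in no FLAG-only list) gave 785 regions, 0.288% of all merged regions. Which of the 2 sets was larger depended on the peaks counted: with lists trimmed to equal length there were 448 members and 580 mirrored regions, and with significant peaks alone 140 members and 5 mirrored regions. The last 2 counts have unlike bases, since significant peaks numbered 32160 with FLAG and 13078 with V5. Their shares of the merged significant regions were not computed. Mirrored regions were narrower, with a median width of 47 nt against 121 nt for regions recurrent with both antibodies.

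The enrichment of the members over input ran from slight to very strong. Of the 453 members, 187 (41.3%) were significant in no FLAG-only list, and 67 (14.8%, 95% Wilson interval 11.8% to 18.4%) were significant in 5 or more. Among all 21110 regions with peaks in 5 or more FLAG-only lists, 2.07% were significant in 5 or more. The rule used the same libraries, so this contrast is a description without a test. Members with peaks in all 7 lists had a median log2 fold of 4.33, those in 6 lists 2.87 and those in 5 lists 2.37. A missing V5-only peak does not show that the RNA was absent from the V5-only libraries, since whether a peak is called also depends on reads whose number is unknown. With any 1 FLAG-only list left out, the number significant in 5 or more of the remaining lists was 67 without 25-100 kDa, 59 without 50-125 kDa, 42 without 75-150 kDa, 39 without 125-200 kDa, 38 without 175-250 kDa and 37 without either 100-175 or 150-225 kDa.

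The members were enriched most in the upper gel ranges. Their median log2 fold was 1.74 at 25-100 kDa, 2.31 at 50-125 kDa, 2.68 at 75-150 kDa and 2.75 at 100-175 kDa, then 3.57 at 125-200 kDa, 3.18 at 150-225 kDa and 3.05 at 175-250 kDa. The share of called members that were significant went from 6.81% at 25-100 kDa to 51.0% at 125-200 kDa. The lists as a whole moved in the same way, with a median log2 fold over all peaks of 1.33 at 25-100 kDa and 2.89 at 125-200 kDa. At 175-250 kDa the members stood farther above the regions recurrent with both antibodies, whose median was 1.98, than at 25-100 kDa, where both medians were 1.74. The part that the level of each list as a whole has in these differences was not tested. Of the 55 members with peaks in all 7 lists, 43 had their lowest fold at 25-100 kDa, and 22 had their highest at 125-200 kDa and 17 at 175-250 kDa.

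**Figure D1:**
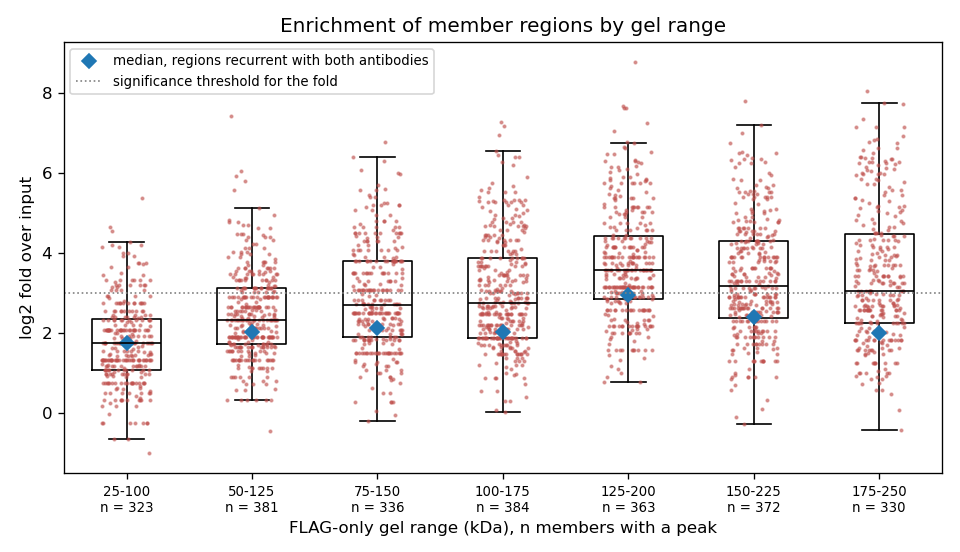
Log2 fold over input (y axis) of every member with a peak in each FLAG-only gel range (x axis, kDa); points are members, boxes span the quartiles with the median as a line, whiskers reach 1.5 box heights, and diamonds give the median of the 13742 regions recurrent with both antibodies. The median of the members goes from 1.74 at 25-100 kDa to 3.57 at 125-200 kDa, and it lies above the diamond in every range but the lowest.

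Which range lacked a peak varied. At 100-175 kDa 384 of the 453 members had a peak, at 50-125 kDa 381, at 150-225 kDa 372, at 125-200 kDa 363, at 75-150 kDa 336, at 175-250 kDa 330 and at 25-100 kDa 323. The commonest gap was a missing peak at 25-100 kDa alone, in 41 members. A further 31 members lacked both 25-100 and 75-150 kDa, and 26 lacked both 150-225 and 175-250 kDa. Some values were shared by many members, since between 4.30% and 11.1% of the members' values in a library fell on the single commonest fold of its list.

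The strongest members were enriched in every gel range. Each of the 10 named by the highest median fold (with peaks in all 7 lists, at most 1 per group of neighbours) was significant in at least 5 lists. The first was chr20:62579890-62580046 on the minus strand, with a lowest log2 fold of 5.39 at 25-100 kDa, a median of 6.50 and a highest of 7.42 at 50-125 kDa. It was significant in 7 of 7 lists, and its −log10 p was 400, the highest value in the lists, in the 4 ranges from 100-175 kDa upwards. At chr4:151172695-151173118 on the plus strand the lowest fold was 4.65, the median 6.46 and the highest 8.78, again with 25-100 kDa lowest and 125-200 kDa highest.

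The next 3 regions also varied between gel ranges. At chr10:99010771-99011259, minus strand, the log2 fold was 3.91 at 25-100 kDa, had a median of 6.40 and reached 7.81 at 150-225 kDa. At chr9:139422773-139423023, minus strand, it lay at 3.28 at 50-125 kDa, with a median of 6.38 and a highest value of 7.27 at 100-175 kDa. At chr12:133530912-133531070, minus strand, it went from 3.44 through a median of 6.33 to 7.15, and the lowest value, at 25-100 kDa, missed significance with a −log10 p of 2.30. In these 3 regions the 25-100 and 50-125 kDa libraries all lay below 5, and the 4 ranges from 100-175 kDa upwards all exceeded 6.

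Of the other 5, chr4:185598130-185598285 (plus strand) had a median of 5.98 between 3.99 and 7.62, and chr16:2154779-2154923 (minus strand) a median of 5.74 between 3.65 and 6.92. The median at chr20:401363-401553 (plus strand) was 5.63, with the values between 4.20 and 6.40. At chr9:129638484-129638586 (plus strand) a median of 5.57 went with values from 2.74 to 6.26, and at chr12:57111001-57111365 (minus strand) a median of 5.53 with values from 3.63 to 7.62. The SD over the 7 libraries was between 0.70 and 1.60 for the 10 regions. In 8 of them the lowest fold came from 25-100 kDa.

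**Figure D2:**
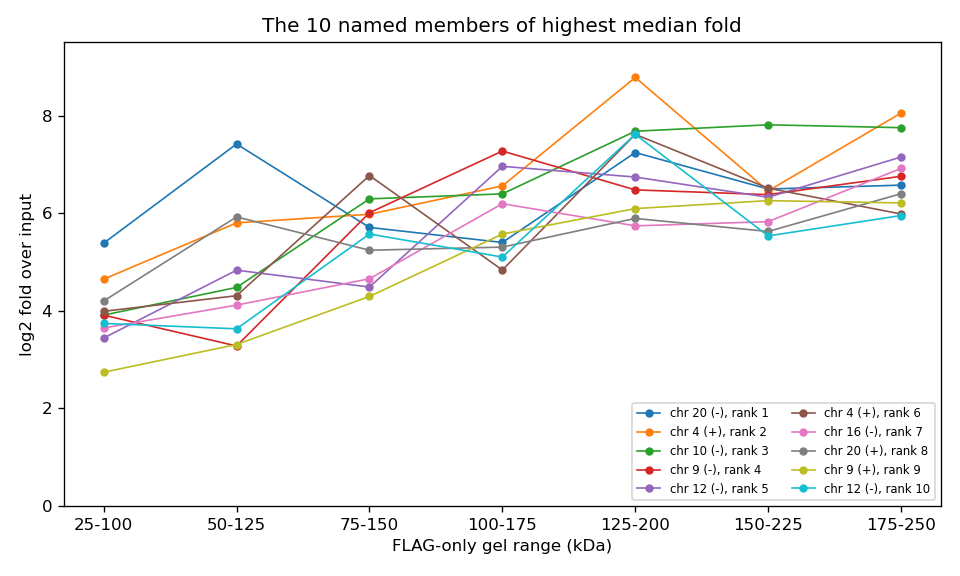
Log2 fold over input (y axis) of the 10 named members of highest median fold in the 7 FLAG-only gel ranges (x axis, kDa); each line is a region, labelled by chromosome and strand in order of median fold. The values lie between 2.74 and 8.78, and 8 of the 10 regions have their lowest value at 25-100 kDa.

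Many members lay close together. Members on the same strand less than 10 kb apart were counted as a stretch, and 124 of the 453 members (27.4%) shared a stretch with another member, in 48 stretches. The mirrored regions gave 124 of 785 (15.8%) in 54 stretches, and of the regions recurrent with both antibodies 81.6% lay in such stretches. Stretches of members were short, with a median span of 724 nt over the 48, against 2569 nt for the mirrored ones. In 36 of the 48 stretches (75.0%) no merged region within the span had a V5-only peak at all, whereas 24 of the 54 mirrored stretches (44.4%) were free of FLAG-only peaks. No test was made of this difference. Where every merged region in a stretch is a member, the absence of V5-only peaks is set by the rule. The 48 stretches of members held 220 merged regions, of which 124 were members. The 54 mirrored stretches held 447, of which 124 were mirrored regions. They thus had more regions at which the other antibody could have a peak, and the 2 shares are not like for like.

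The stretch with the most members covered 2476 nt of the minus strand at chr12:57110262-57112737. It held 9 merged regions, all of them members and so by the rule without a V5-only peak. The medians of the 9 members lay between 4.39 and 5.53, and 8 of the 9 were significant in 5 or more FLAG-only lists. The widest, chr12:57111981-57112573 with 593 nt, was the widest of all members, and its 7 values lay between 4.55 and 6.04 with a median of 5.53. The narrowest, chr12:57111602-57111634, had peaks in 5 lists, from 2.74 at 25-100 kDa to 6.53 at 125-200 kDa.

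The next stretches had the same form. On the minus strand of chromosome 19, chr19:2013585-2015212 held 7 members among 9 merged regions, with medians from 3.95 to 5.19, and the strongest of them, chr19:2014174-2014588, ran from 3.65 at 25-100 kDa to 6.23 at 175-250 kDa. On the plus strand of chromosome 16, chr16:89973740-89975234 held 6 members among 8 regions, with medians from 3.53 to 5.49. On the plus strand of chromosome 3, chr3:195439732-195441342 held 4 members among 7 regions, with medians from 3.04 to 4.38. The regions between the members in these 3 stretches had peaks in fewer than 5 FLAG-only lists, and no region in them had a V5-only peak.

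A stretch of 5760 nt on the plus strand of the X chromosome, chrX:70781625-70787384, was different. It held 4 members among 12 merged regions, and 6 of the 12 had V5-only peaks. The members there were 32 to 46 nt wide, with medians between 2.54 and 3.53, and none was significant in more than 4 lists. These 4 narrow members thus lay between sites that the V5-only libraries also held.

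V5-only peaks were often near a member. Within 100 nt on the same strand a V5-only peak was found for 142 of the 453 members (31.3%), within 1 kb for 251 (55.4%) and within 10 kb for 413 (91.2%). For the mirrored regions and FLAG-only peaks the shares were 21.0%, 62.4% and 95.2%. The nearest V5-only peak lay at a median distance of 698 nt. No member was overlapped by a tag-only peak of the opposite strand (0 of 453, which allows a share of up to 0.662%), where 0.342% of all merged regions were. Members were spread over every chromosome apart from Y. Chromosome 16 held 38 (8.39%) against 4.22% of the regions with peaks in 5 or more FLAG-only lists, chromosome 9 held 30 (6.62%) against 3.18%, and chromosome 11 held 14 (3.09%) against 5.67%. Neighbours are counted singly here, and 14 of the 38 members on chromosome 16 lay in 5 stretches of 2 or more.

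In a comparison added after the data had been seen, whether regions chosen in this way separate the antibodies in libraries that did not choose them was examined by leaving out a gel range. The rule was applied to the other 6 ranges (5 or more of 6 FLAG-only lists, no V5-only list), and the chosen regions were looked up in both lists of the range left out. Between 54.2% and 70.2% of the chosen regions had a peak in the FLAG-only list left out, and between 7.41% and 26.6% had one in the V5-only list, with FLAG higher in 7 of 7 ranges. Among all merged regions of the other 6 ranges, the FLAG-only list left out held between 14.7% and 20.9% and the V5-only list between 13.2% and 20.0%, with FLAG higher in 3 of 7 ranges. The gap was widest at 175-250 kDa in relation to the V5 share, where 161 of 297 chosen regions (54.2%) had a FLAG peak and 22 (7.41%) a V5 peak. At 50-125 kDa the numbers were 224 of 319 (70.2%) and 85 (26.6%), beside 19.9% and 19.3% of all merged regions. At 100-175 kDa they were 188 of 273 (68.9%) and 45 (16.5%), beside 17.5% and 17.6%. The 7 choices share libraries and the ranges overlap on the gel, so no p-value is given. For the same reason the lists left out are not independent of the choice. All merged regions were not matched to the chosen ones for recurrence. The shares are a description and cannot decide if the antibodies differ at these regions.

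**Figure D3:**
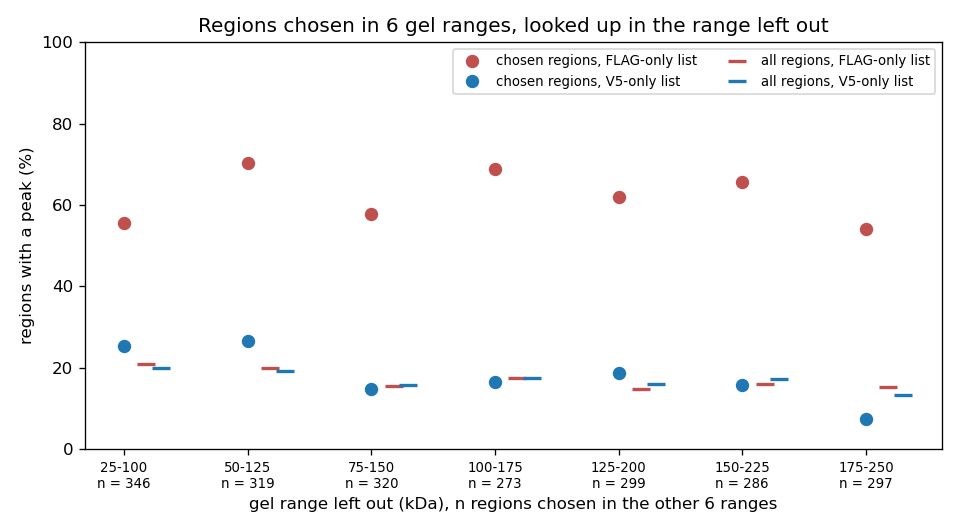
Share of regions with a peak (y axis, %) in the FLAG-only and V5-only lists of each gel range left out (x axis, kDa), for regions chosen in the other 6 ranges (circles) and for all merged regions of those ranges (dashes). The FLAG-only circles lie between 54.2% and 70.2% and the V5-only circles between 7.41% and 26.6%, while the dashes of both antibodies lie between 13.2% and 20.9%.

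Among the chosen regions, the strongly enriched ones seldom had a V5 peak in the range left out. When the chosen regions were also significant in 5 or more of the other 6 FLAG-only lists, 37 to 69 regions remained. The FLAG-only list left out held 37 of 37 at 150-225 kDa, 39 of 39 at 100-175 kDa and 39 of 40 at 175-250 kDa, and its lowest share was 41 of 69 (59.4%) at 25-100 kDa. The V5-only list left out held between 0 and 2 of them in each range. It held none of 59 at 50-125 kDa, which allows a share of up to 5.08%, and none of 40 at 175-250 kDa, which allows up to 7.5%. The highest V5 share was 2 of 41 (4.88%), at 125-200 kDa. All these regions were chosen for strong FLAG-only peaks and no V5-only peak in the other 6 ranges. High FLAG and low V5 shares can therefore follow from the choice itself. No share is given for equally strong regions with V5-only peaks.

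The RBP libraries were not used by the rule. A peak in at least 1 of the 11 libraries was found at 215 members (47.5%), beside 47.9% of all merged regions. Members were wider, with a median of 76 nt against 33 nt, and wider regions can be overlapped more often. This share and the shares of significant peaks were not split by width. Significant RBP peaks lay at 57 members, of which 51 had one in a single library and 6 in 2. The matching shares of all merged regions were not computed, so nothing is read from these counts. FMR1 FLAG overlapped the most members, with 136 of 453 (30.0%, 95% Wilson interval 26.0% to 34.4%) against 23.5% of all merged regions. Significant FMR1 FLAG peaks lay at 47 members (10.4%, 7.89% to 13.5%) against 4.45% of all merged regions. FMR1 wild type overlapped 72 (15.9%, 12.8% to 19.5%) against 14.8%, and its significant peaks lay at 6 members (1.32%) against 0.876%. These intervals cover counting error over regions only, and neighbouring regions are not independent. The FMR1 FLAG contrast moved with region width. Among regions of at most 50 nt the library overlapped 35.6% of members and 14.9% of all merged regions, among those of 51 to 100 nt 30.7% and 39.9%, and among those over 100 nt 25.0% and 66.7%. The members' share was thus above that of all merged regions in the narrowest class and below it in the other 2. With a peak required to cover at least 50% of the region, the shares were 13.2% of members and 14.1% of all merged regions. Regions recurrent with both antibodies stood above the members in both FMR1 libraries. FMR1 FLAG overlapped 81.7% of them and was significant at 16.6%, and FMR1 wild type overlapped 69.5% and was significant at 4.20%. By width, in the order above, their FMR1 FLAG share was 75.8%, 77.9% and 84.0%.

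Over all widths, DGCR8 FLAG overlapped 21 members (4.64%, 3.05% to 6.98%) against 4.96% of all merged regions and was significant at 1 member (0.221%) against 0.0789%. By width its shares of members and of all merged regions were 4.81% and 2.56% at up to 50 nt, 4.39% and 8.68% at 51 to 100 nt, and 4.86% and 19.1% over 100 nt, the same order as in FMR1 FLAG. DGCR8 wild type overlapped 27 (5.96%) against 7.05% and was significant at none of the members and at 0.189% of all merged regions. LIN28 V5 overlapped 60 (13.2%) against 15.1%, and LIN28 wild type 36 (7.95%) against 9.34%. Significant peaks of LIN28 V5 lay at 5 members (1.10%) against 1.55% of all merged regions, and those of LIN28 wild type at 2 (0.442%) against 0.426%. RBFOX2 V5 overlapped 36 (7.95%) against 9.11%, and RBFOX2 wild type 21 (4.64%) against 6.03%. Each RBFOX2 library was significant at 1 member (0.221%), against 0.304% of all merged regions for wild type and 0.168% for V5. In these 6 libraries the interval of the members' share of called peaks included the share of all merged regions. Regions recurrent with both antibodies stood above the members in all 6. DGCR8 wild type overlapped 41.4% of them, LIN28 wild type 48.6% and RBFOX2 V5 40.4%. Members were thus overlapped less often than these recurrent regions. Neither comparison matched widths, and DGCR8 wild type and the LIN28 and RBFOX2 libraries were not split by width. In DGCR8 FLAG the recurrent regions stood above the members in each width class, with 30.6% against 4.86% over 100 nt.

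HNRNPC peaks were nearly absent from the members. HNRNPC wild type overlapped 2 members (0.442%, 0.121% to 1.59%) against 6.74% of all merged regions, V5 isoform 1 overlapped 2 (0.442%) against 5.27%, and V5 isoform 2 overlapped 4 (0.883%) against 6.22%. No member held a significant HNRNPC peak (0 of 453, which allows up to 0.662%), where all merged regions did in 0.248% for wild type, 0.0514% for V5 isoform 1 and 0.130% for V5 isoform 2. Of these 8 peaks 1 had a log2 fold above 0. The mirrored regions stood at the other end, with 566 of 785 (72.1%, 68.9% to 75.1%) overlapped by HNRNPC wild type, 57.7% by V5 isoform 1 and 66.4% by V5 isoform 2. The wild-type library used no V5 antibody, and the reason for this overlap was not tested. The share of mirrored regions depended on their width. HNRNPC wild type overlapped 1 of 104 members and 431 of 481 mirrored regions (89.6%) of at most 50 nt, 1 of 205 members and 128 of 252 mirrored regions (50.8%) of 51 to 100 nt, and 0 of 144 members and 7 of 52 mirrored regions (13.5%) over 100 nt.

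**Figure D4:**
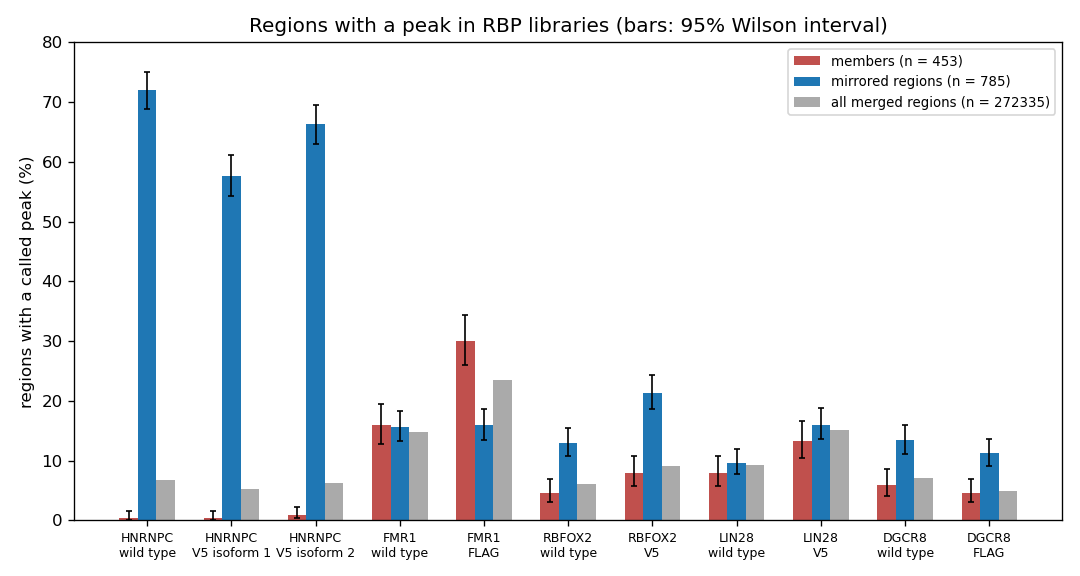
Share of regions overlapped by a called peak (y axis, %) in each of the 11 RBP libraries (x axis) for members, mirrored regions and all merged regions; error bars are 95% Wilson intervals. In FMR1 FLAG the members stand at 30.0% against 15.9% of mirrored regions over all widths, while in the 3 HNRNPC libraries they stand below 1% against 57.7% to 72.1%.

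Whether members go with the FLAG antibody in tagged libraries was tested over the 6 tagged libraries. The value per library was the share of members overlapped minus the share of mirrored regions overlapped. It was 14.1 percentage points in FMR1 FLAG and −6.57 in DGCR8 FLAG, and −2.81 in LIN28 V5, −13.5 in RBFOX2 V5, −57.3 in HNRNPC V5 isoform 1 and −65.5 in HNRNPC V5 isoform 2. The FMR1 FLAG value was 3.31 points where a peak had to cover at least 50% of the region (13.2% of members against 9.94% of mirrored regions). Among regions over 100 nt it had the other sign, with 25.0% of 144 members against 36.5% of 52 mirrored regions. The mean was 3.76 ± 14.6 points (SD, n = 2) with FLAG and −34.8 ± 31.2 (SD, n = 4) with V5. Both HNRNPC isoforms were counted as separate V5 libraries here, although they belong to the same RBP. The difference of 38.5 points was not significant (exact permutation p = 0.133, one-sided, 2 of 15 arrangements as large, the smallest possible p being 0.0667, adjusted p = 0.200 over 2 tests). The 2 groups overlapped, since DGCR8 FLAG lay below LIN28 V5. The lowest values were those of the 2 HNRNPC libraries, whose peaks lay at most mirrored regions, and with the share of members alone it was 11.7 points (exact permutation p = 0.200).

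The same difference taken within each RBP, tagged minus wild type, was smaller. It was 13.9 points in FMR1 and 0.84 in DGCR8, the FLAG-tagged proteins, and 10.3 in HNRNPC (mean of both isoforms), −1.07 in LIN28 and −5.10 in RBFOX2, the V5-tagged ones. The mean was 7.36 ± 9.22 points (SD, n = 2) for FLAG and 1.37 ± 7.98 (SD, n = 3) for V5. Their difference of 5.98 points was not significant (exact permutation p = 0.200, one-sided, 2 of 10 arrangements as large, the smallest possible p being 0.100, adjusted p = 0.200). Neither design can reach a p under 0.05, and each RBP carries a single tag, so that protein and tag cannot be told apart.

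The 2 FMR1 libraries shared part of their members. Both had a peak at 51 members, FMR1 FLAG without wild type at 85, and wild type without FLAG at 21. At 4 members both peaks were significant. How often all merged regions had peaks in both FMR1 libraries was not counted, so these counts have no reference. Where FMR1 FLAG had a peak, its median log2 fold was 2.80, against 2.09 over all merged regions it overlapped, and the highest was 5.64. For FMR1 wild type the medians were 2.03 at members and 1.51 over all merged regions. The FMR1 FLAG list was the longest of the series, with 100679 peaks against 58500 in FMR1 wild type.

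FMR1 FLAG peaks lay mostly at members with weak enrichment in the FLAG-only libraries. Of the 187 members significant in no FLAG-only list, FMR1 FLAG overlapped 84 (44.9%, 38.0% to 52.1%). The share was 41 of 123 (33.3%) among members significant in 1 or 2 lists, 9 of 76 (11.8%) in 3 or 4 lists, and 2 of 67 (2.99%, 0.822% to 10.2%) in 5 to 7 lists. FMR1 wild type went from 41 of 187 (21.9%) to 2 of 67 (2.99%) over the same classes. Any of the 11 RBP libraries overlapped 117 of 187 (62.6%) in the lowest class and 13 of 67 (19.4%, 11.7% to 30.4%) in the highest. DGCR8 FLAG had no such order, with 10 of 187 (5.35%), 6 of 123 (4.88%), 0 of 76 (which allows up to 3.95%) and 5 of 67 (7.46%).

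Regions recurrent with both antibodies gave other shares under the same grading. Of the 308 such regions significant in 5 or more FLAG-only lists, FMR1 FLAG overlapped 275 (89.3%, 85.3% to 92.3%) and any RBP library 297 (96.4%), and of the 6479 significant in none, FMR1 FLAG overlapped 5102 (78.7%). These regions are wider than members. The median width of members was 67 nt in the lowest class and 125 nt in the highest, so that the class with the lowest FMR1 FLAG share had the widest regions.

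Strong members were also the more isolated from V5-only peaks. A V5-only peak lay within 1 kb of 129 of 187 members (69.0%) significant in no FLAG-only list, and of 23 of 67 (34.3%, 24.1% to 46.3%) significant in 5 to 7. The median distance to the nearest V5-only peak was 150 nt in the former and 1915 nt in the latter. Strong members shared a stretch with another member more often, in 49 of 67 cases (73.1%) against 13 of 187 (6.95%). The classes were formed from the FLAG-only values themselves, and members of a stretch are not independent, so these shares are given without a test.

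**Figure D5:**
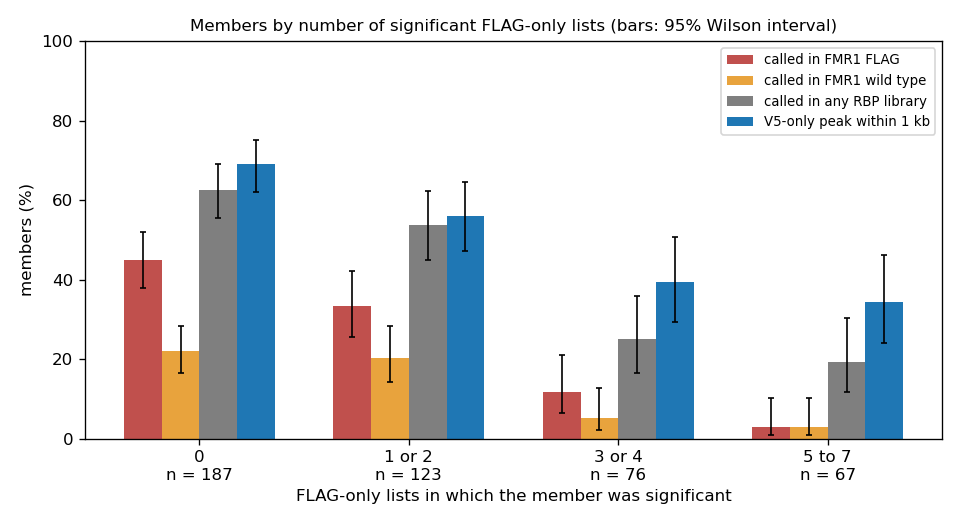
Share of members (y axis, %) overlapped by a called peak in FMR1 FLAG, in FMR1 wild type or in any RBP library, or with a V5-only peak within 1 kb on the same strand, by the number of FLAG-only lists in which the member was significant (x axis); error bars are 95% Wilson intervals. The FMR1 FLAG share goes from 44.9% of 187 members to 2.99% of 67.

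Significant RBP peaks in 2 libraries were found at 6 members. The one with the highest FLAG-only median was chr3:121410277-121410401 on the minus strand, with FLAG-only log2 folds from 2.46 at 100-175 kDa to 5.33 at 125-200 kDa and a median of 3.98. FMR1 FLAG had a log2 fold of 5.26 there (−log10 p 9.77) and FMR1 wild type 3.09 (5.90), both significant. On the plus strand of chromosome 3, chr3:37369222-37369317 had a FLAG-only median of 3.19 over 6 lists, between 1.42 and 4.96, and log2 folds of 3.33 in FMR1 FLAG and 3.93 in FMR1 wild type. Both FMR1 libraries were likewise significant at chr2:198263185-198263192, where FMR1 FLAG had 3.97 and wild type 3.47, and at chr12:123682794-123682882, with 4.39 and 3.03. The FLAG-only medians at these 2 regions were 3.16 and 2.40, and each was significant in a single FLAG-only list.

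The other 2 members with significant peaks in 2 RBP libraries had them in RBFOX2 or LIN28. At chr1:224380100-224380169 on the plus strand, which falls outside the naming rule and is given to complete the count, LIN28 wild type had 3.65 and LIN28 V5 3.40. At chr9:130880710-130880991 on the minus strand RBFOX2 wild type had a log2 fold of 5.02 and RBFOX2 V5 4.30, and the FLAG-only values in 5 lists ran from 1.33 to 4.89. The highest FMR1 FLAG fold at any member was 5.64 (−log10 p 13.0), at chr12:64816973-64817025 on the plus strand, where FMR1 wild type had 2.55. That region was significant in none of its 6 FLAG-only lists, with values from 1.16 to 3.11. At chr16:56397884-56398014 on the minus strand FMR1 FLAG had 5.17, wild type 1.55, and the 5 FLAG-only values lay between 1.81 and 2.57.

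In DGCR8 FLAG the member of highest fold was one of the 10 strongest regions above, chr12:133530912-133531070, with a log2 fold of 3.68 (−log10 p 3.53), the single significant DGCR8 FLAG peak at a member. No other RBP library had a peak there. At chr1:202733177-202733256 on the minus strand DGCR8 FLAG had 3.26, and at chr1:240371378-240371508 on the plus strand 3.0, with −log10 p values of 1.35 and 1.98 that missed the threshold. The latter region was significant in all 6 FLAG-only lists that held it, with values from 3.56 to 5.09, and belonged to a stretch of 3 members at chr1:240370993-240371880 without V5-only peaks.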

How the data were processed

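Peak lists of 25 eCLIP libraries were used, 14 tag-only and 11 of RBPs, and 18 input samples entered through the authors' normalisation only. Each deposited list gave, per peak, the −log10 p and the log2 fold over input as computed by the authors. The submitters' processing notes name cutadapt, STAR, GATK, Picard, SAMtools and the build hg19, and which program called the peaks was not given in the sources. The highest deposited −log10 p was 400. Read depth is unknown, so the precision of single peaks could not be computed.

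Samples were grouped by their GEO labels. Peaks were pooled, merged per strand at 1 nt overlap, and counted per list. Named regions were the 10 members of highest median fold with peaks in all 7 lists, the 5 with significant peaks in the most RBP libraries (both at most 1 per stretch), the 5 stretches with the most members, and the 3 of highest fold in FMR1 FLAG and DGCR8 FLAG. Shares carry 95% Wilson intervals, and a count of 0 allows up to 3 counts. Exact permutation tests were adjusted by Benjamini-Hochberg over 2 tests. The members, lists and rules were chosen with earlier results of these data known. Alternatives were other list thresholds, list lengths, merging, overlap and significance thresholds, and left-out libraries. Python 3.11.15, numpy 2.4.6, pandas 2.3.3, scipy 1.17.1 and matplotlib 3.10.9 were used. The merging, counting and overlap of regions were checked on simulated data, and the permutation tests were not. No 2 lists were identical. Since the labels name no separate cultures, p-values measure the spread between libraries. Gene names and sequences were not used here.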

Additional observations from a re-analysis of the deposited data

Results flagged for a closer look

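Among 24 sets of 4 to 10 values examined for a single value far from the rest, 0 held one, where chance alone would give about 1.2.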

How the results depend on the processing

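The number of members followed the rule's threshold: it was 1278 with 4 or more FLAG-only lists, 169 with 6 or more, 55 with all 7, and 1269 with up to 1 V5-only list. Leaving out a gel range gave 273 to 346, with the lowest values without 100-175 kDa (273), 150-225 kDa (286), 175-250 kDa (297) and 125-200 kDa (299), where 5 of 6 lists were needed in place of 5 of 7. Lists trimmed to an equal length of 47978 peaks gave 448 members and 580 mirrored regions, and merging within 10 nt gave 467 members. With significant peaks only there were 140 members and 5 mirrored regions, from unequal numbers of significant peaks (32160 with FLAG and 13078 with V5). The number of members significant in 5 or more lists was 48 at a −log10 p of at least 5, 92 at a log2 fold of at least 2, and 37 to 67 with 1 FLAG-only list left out. The median log2 fold stayed between 2.51 and 2.69 with 1 list left out. The difference between tag antibodies kept its direction in all 10 alternatives run, at 5.70 to 49.2 points (exact permutation p from 0.100 to 0.400), as did the difference from wild type in both of its alternatives, at 1.65 to 3.46 points (exact permutation p from 0.300 to 0.400). The few arrangements allowed no p under 0.05 in any of these alternatives, so nothing is read from their p-values missing that threshold. The use of significant peaks alone for the members and the left-out lists for the fold and for the count of 67 were chosen after seeing the data. The labels carry no replicate numbers by which to pair libraries. The FLAG-only and V5-only lists can be matched by gel range, but they chose the members and so get no test. Tagged and wild-type libraries were matched by RBP in the second permutation test. Unknown read depth limits what a missing peak shows.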

Other observations

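Of the 453 members, 238 had no peak in any RBP library, 93 had one in a single library, 73 in 2, 31 in 3, 11 in 4, 3 in 5, 2 in 6 and 2 in 7. The member of highest median fold over the libraries with a peak was chr4:151172224-151172282 on the plus strand, which falls outside the naming rule because it had peaks in 6 lists. Its median was 7.03, with 3.63 at 50-125 kDa, 4.29 at 75-150 kDa and values from 7.0 to 7.36 in the 4 ranges from 100-175 kDa upwards. It lay in a stretch of 3 members with no V5-only peak that also held the second of the strongest regions named above.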
